A study of Mus musculus with 32 samples.

Results

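The Olig1+ progenitors described here were 525 cells among 143705 barcodes of the embryonic mouse dorsal telencephalon, the tissue that forms the cerebral cortex. They were proposed as oligodendrocyte-lineage precursors. A barcode was included if it held at least 1000 UMIs (unique molecular identifiers, 1 per captured RNA molecule) and 500 genes, at least 1 UMI of Olig1, at least 3 UMIs of Olig1, Olig2 and Pdgfra together, and no UMI of Neurod6 or Gad2, which mark excitatory neurons and interneurons. These 5 genes chose the cells and are only described below. The study profiled C57BL/6J embryos by droplet single-cell RNA sequencing (10x Genomics 3' kit, v2 chemistry), with the medial dorsal telencephalon cut away. WT embryos were compared with Chd8 het embryos, which lack 1 working copy of Chd8, a chromatin remodelling gene, in every cell. The 4 stages sampled were embryonic day (E) 12.5, then E14.5 and E16.0, and last E17.5. Each of the 8 groups had 4 libraries, each from 1 embryo, called M1 and M2 (male) and F1 and F2 (female).

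Oligodendrocytes, the myelinating cells of the brain, descend from precursor cells that divide and migrate widely. Olig1 and Olig2 are transcription factors of the lineage, but Olig2 is also carried by other progenitors. Pdgfra, the receptor for the growth factor PDGF-A, marks the precursor itself, and Sox10 is a transcription factor of cells committed to the lineage. In the forebrain the earliest precursors arise ventrally and migrate into the cortex, while the cortex's own progenitors, through an intermediate that carries Egfr, make further precursors and astrocytes late in embryonic life.

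The libraries held between 14710694 and 66499864 UMIs and between 2509 and 7473 barcodes. Over all cells, Chd8 lay between 39.99 and 83.8 CPM (counts scaled to a total of 1000000 UMIs) in WT and between 20.6 and 71.0 CPM in het libraries. It was lower in het in 15 of 16 comparisons of same-named libraries, the exception being F1 at E17.5. Among the E17.5 libraries, the summed counts of the Olig1+ progenitors put 3 apart on the first principal component, which took 40.3% of the variance: WT M1 at 17.4, het M1 at 23.3 and het F1 at 19.1, against -8.58 to -14.4 in the other 5. The same 3 had the highest histone gene sums in these cells, 5913, 6854 and 6737 CPM against 4641 to 5739. Their sample codes in the labels share a form that only WT F1 also has at E17.5. Genotype shares and counts of called genes are also given without these 3 libraries. Of the 525 cells, 28 were scored as likely doublets in E16.0 and E17.5 libraries, 12 of them among the 60 cells of WT F1 at E17.5. No cell exceeded 10% mitochondrial UMIs. The barcodes of 90 of the cells also occurred in another library, and any 2 libraries shared at most 1.30% of the smaller one's barcodes.

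The rule found very few cells before E16.0. There were 2 at E12.5 (0.00490% of 40792 barcodes), 7 at E14.5 (0.0218% of 32087), 80 at E16.0 (0.189% of 42371) and 436 at E17.5 (1.53% of 28455). At E16.0 the WT libraries M1, M2, F1 and F2 held 9, 10, 9 and 5 of these cells and the het libraries 16, 12, 9 and 10. At E17.5 the WT libraries held 75, 46, 60 and 44 and the het libraries 26, 63, 70 and 52. Every library of the last 2 stages therefore contributed. In the 12 libraries of E12.5 and E14.5 that held none, a count of 0 allows a share of up to 0.0496% to 0.0943%, by counting error only.

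**Figure D1:**
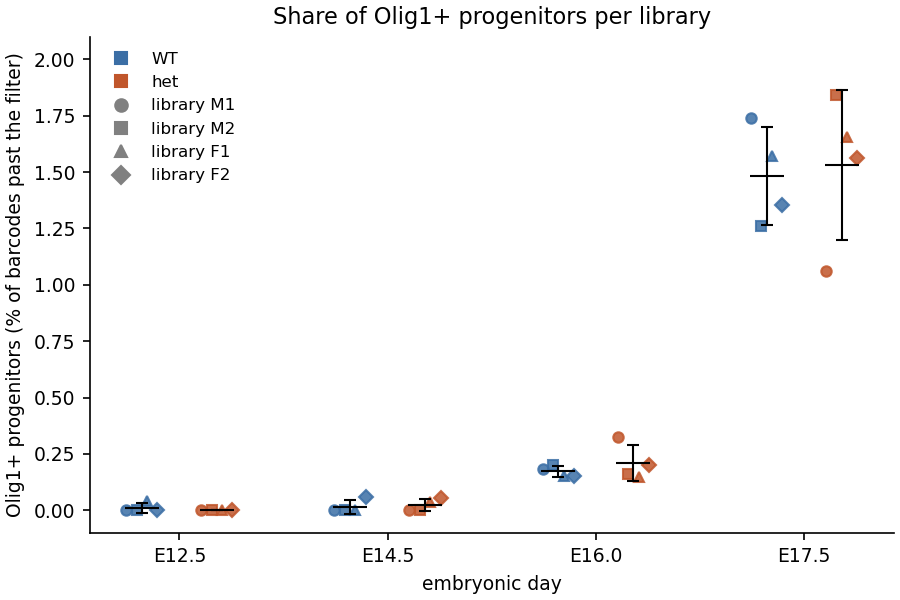
Share of Olig1+ progenitors among barcodes past the depth filter (percent, y axis) at each embryonic stage (x axis), 1 point per library, coloured by genotype. The 16 libraries of E12.5 and E14.5 lie at or below 0.0582%, those of E16.0 between 0.149% and 0.327%, and those of E17.5 between 1.06% and 1.84%.

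In the WT libraries of E16.0 the share was 0.184%, 0.200%, 0.152% and 0.154%, and in those of E17.5 it was 1.74%, 1.26%, 1.57% and 1.36%. The 2 sets did not overlap, and the mean rose from 0.173% ± 0.0236 to 1.48% ± 0.217 (SD, n = 4 libraries each). This difference of 1.31 percentage points gave p = 0.0286 in a two-sided exact permutation test over libraries, the smallest p that 4 against 4 allow, and 0.2 after Benjamini-Hochberg adjustment over the 7 comparisons of shares made here. The het libraries lay at 0.327%, 0.162%, 0.149% and 0.200%, and then at 1.06%, 1.84%, 1.66% and 1.56%. The sum of the 3 marker UMIs was exactly 3 in 43 of the 525 cells, and 42 further barcodes met the other criteria with a sum of 2. The bar on Neurod6 kept out 205 barcodes and that on Gad2 58. Among neurons (at least 2 Neurod6 UMIs, no Gad2) 0.0240%, 0.0758%, 0.208% and 1.44% held an Olig1 UMI at the 4 stages in order, and 0.206% at E17.5 also met the sum, so Olig1 UMIs in neurons also became more common over these stages. Requiring a sum of at least 4 left 482 cells.

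The 9 early cells were of more than one kind. The 2 cells of E12.5, both from WT F1, held 1 Olig1 and 3 Olig2 UMIs each, with no UMI of Pdgfra or Sox10. They carried 17 and 8 UMIs of Dlx2 and 6 and 3 of Gsx2, transcription factors of ventral telencephalic progenitors. At E14.5, by contrast, WT F2 gave a cell of 29132 UMIs with 50 of Olig1, 33 of Olig2, 7 of Pdgfra and 9 of Sox10 and none of Dlx1 or Dlx2. That cell was also scored as a likely doublet. A second cell of this library had 33 Olig1 and 6 Pdgfra UMIs, and a het F2 cell had 47 Olig1, 17 Olig2 and 2 Pdgfra UMIs. These 3 were the only E14.5 cells with Pdgfra. Pdgfra without Olig1 was a different population at these early stages. Over all stages, 102 barcodes held at least 2 Pdgfra UMIs and no Olig1. Of these, 94 held at least 3 UMIs of the collagen genes Col1a1 and Col3a1 together. They were 89 of 90 at E12.5 and 5 of 5 at E14.5, but 0 of 2 at E16.0 and 0 of 5 at E17.5.

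The name oligodendrocyte-lineage precursor was borne out only for a portion of the cells. Among the 80 cells of E16.0, 53 had a Pdgfra UMI, 45 a Sox10 UMI (56.3%) and 45 a UMI of Cspg4, the NG2 proteoglycan of the precursor surface. Among the 436 of E17.5, 137 had a Pdgfra UMI, 95 a Sox10 UMI (21.8%) and 64 a Cspg4 UMI (14.7%), whereas 223 (51.1%) had Egfr. Sox10 was found in 40% to 70% of these cells in each E16.0 library and in 11.5% to 28.3% at E17.5, so that the 2 ranges did not overlap. The Egfr share moved the other way, from 0% to 40% at E16.0 to 42.3% to 61.4% at E17.5. The cells are therefore called Olig1+ progenitors here, and those with at least 1 Pdgfra UMI are called Pdgfra-detected. Of 15 genes of differentiating and myelinating oligodendrocytes, Mag, Mog, Enpp6, Opalin, Mal and Ermn had no UMI at either stage. The whole list summed to between 144 and 376 CPM at E16.0, where 36 of 80 cells held at least 3 such UMIs, and to between 90.3 and 214 CPM at E17.5, where 80 of 436 did.

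Markers of microglia, pericytes, meningeal fibroblasts and endothelium were low in these cells. Microglial genes summed to at most 24.5 CPM in any library of E16.0 and E17.5, with Cx3cr1 and Aif1 at 0 at both stages and no cell holding 3 such UMIs. Pericyte genes reached 17.47 CPM, meningeal fibroblast genes 16.05 CPM with Col1a1, Dcn and Lum at 0, and endothelial genes 48.6 CPM. Neuronal genes were present. Excitatory neuron genes other than Neurod6 summed to between 64.2 and 667 CPM at E16.0 (highest in WT F1) and between 210 and 268 CPM at E17.5. Interneuron genes summed to between 37.6 and 457 CPM (highest in het F2) and then between 105.4 and 181 CPM. Genes of neurogenic intermediate progenitors summed to between 44.9 and 926 CPM (highest in WT F1) and then between 358 and 1016 CPM. At least 3 UMIs of the excitatory neuron list were in 27 of 80 cells at E16.0 and 158 of 436 at E17.5. For the interneuron list these were 11 and 59 cells, and for the intermediate progenitor list 19 and 209. Red blood cell genes ran from 54.4 to 179 CPM at E16.0 and from 180 to 4303 CPM at E17.5, the highest in het M1. In all other cells, too, the globin sum of het M1 was the highest of the E17.5 libraries.

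To describe these cells beside other progenitors of the same libraries, they were set against 930 radial glia-like comparison cells of E17.5 (Slc1a3 and Fabp7 together at least 3 UMIs, Hes5 at least 1, none of Olig1, Pdgfra, Neurod6, Gad2 or Eomes). Because both sets were chosen by their genes, the folds are a description without a test. Of 3727 genes at 50 CPM or more in either set, 70 (1.88%) were at least 2-fold higher in the Olig1+ progenitors and higher in all 8 libraries, and 264 (7.08%) were at least 2-fold lower and lower in all 8. A gene entered if either set reached this level, and some, such as Egfr and Dll3, did so only in the set where they are high, so no list median is given. In the glial intermediate progenitor list, 7 of 11 genes were higher and 2 lower. Egfr, the receptor for epidermal growth factor, stood at 109 CPM against 11.1 CPM. The Notch ligand genes Dll3 and Dll1 stood at 82.5 against 4.70 CPM and at 66.9 against 6.75 CPM. The genes with the largest folds were Serpine2, a secreted protease inhibitor (317 against 5.83 CPM), Nptx2 (117 against 3.997 CPM) and Helt, a transcription factor of the Hes and Hey family (60.4 against 2.83 CPM). Of the other lists, 3 of 8 OPC (oligodendrocyte precursor cell) genes were higher, 5 of 11 radial glia genes lower and 4 of 7 astrocyte genes lower. In the neurogenic intermediate progenitor list, 1 of 3 genes was higher and 0 were lower. Eomes, also of that list, was barred in the comparison cells but not in the Olig1+ progenitors. Among single genes, Adamts18 (3.48 against 111 CPM) and Clu, which encodes the secreted chaperone clusterin (10.2 against 131 CPM), were lower in the Olig1+ progenitors.

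At E17.5, Sox10, Cspg4 and most other precursor genes tested were higher in the cells with Pdgfra, while Ncan and Fam181b were not. Pdgfra (chr5:75152292-75198215, GRCm38) was detected in 100%, 60%, 55.6% and 60% of the cells in the WT libraries of E16.0 and in 56.3%, 75%, 55.6% and 70% in the het ones. At E17.5 it was detected in 34.7%, 39.1%, 36.7% and 22.7% (WT) and in 30.8%, 31.7%, 27.1% and 26.9% (het). The E16.0 and E17.5 libraries did not overlap. Pdgfra-detected cells numbered 53 at E16.0 and 137 at E17.5, and undetected cells 27 and 299. When each cell was thinned to 1500 UMIs, Pdgfra was found in 28.1% ± 12.3 of cells at E16.0 and 16.5% ± 4.59 at E17.5 (SD, n = 8 libraries each), and those ranges overlapped, 11.1% to 44.4% against 10.0% to 21.7%. At E17.5 the median UMI count averaged 6697 in Pdgfra-detected and 9739 in Pdgfra-undetected cells and was lower in the detected cells of 7 of 8 libraries, het M1 being the exception. At E16.0 it was higher in the detected cells in 5 of the 7 libraries that held both sets.

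**Figure D2:**
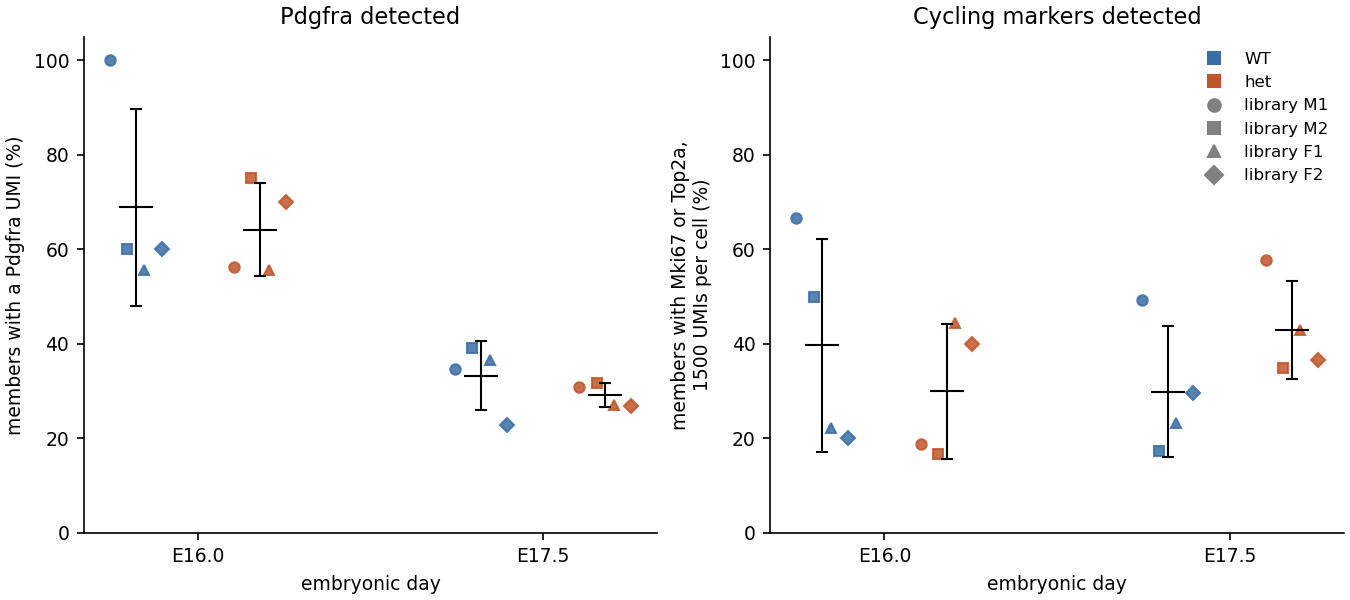
Left, percent of Olig1+ progenitors with at least 1 Pdgfra UMI in each library of E16.0 and E17.5; right, percent with a UMI of the proliferation genes Mki67 or Top2a after thinning to 1500 UMIs per cell. The Pdgfra shares of E17.5 (22.7% to 39.1%) all lie below those of E16.0 (55.6% to 100%), while the cycling shares of the 2 stages overlap.

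The shares of cells with Sox10 and Cspg4 differed with Pdgfra at E17.5. Sox10 (chr15:79154908-79165240) was found in 80 of 137 Pdgfra-detected cells (58.4%) and in 15 of 299 undetected cells (5.02%), and Cspg4 in 60 (43.8%) and 4 (1.34%). Egfr was found in 42 (30.7%) and 181 (60.5%). At E16.0 Sox10 was in 37 of 53 (69.8%) and 8 of 27 (29.6%), and Cspg4 in 39 (73.6%) and 6 (22.2%). Thinned to 1500 UMIs, the E17.5 shares with Sox10 were 28.5% in the detected set, 2.01% in the undetected set and 0% in the radial glia-like cells, and those of E16.0 were 30.2%, 3.70% and 0%. When Pdgfra too was called after thinning, Sox10 was in 33.3% of cells with and 5.77% of cells without it at E17.5, but in 22.7% and 20.7% at E16.0, so the E16.0 difference was not seen at that depth. The thinned shares for Tnc, the extracellular matrix gene tenascin C, ran the other way, at 1.46%, 13.4% and 44.3%, and those for Aldoc, a glycolytic gene of astroglia, at 8.03%, 18.4% and 68.7%. For both genes the undetected cells thus lay between the other 2 sets.

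Counts were then summed per library and Pdgfra state and compared within libraries in 7 of the 8 libraries of E17.5. Het M1 was not used because it held only 8 Pdgfra-detected cells, under the minimum of 10. A sum per library cannot tell more cells with a transcript from more transcripts per cell. Of 3686 genes tested with edgeR's quasi-likelihood test and the library as a block, 706 (19.2%) differed at an adjusted p under 0.05: 377 (10.2%) were higher and 329 (8.93%) lower in Pdgfra-detected cells. Sox10 lay between 106 and 218 CPM (median 172) in Pdgfra-detected cells and between 0 and 32.7 CPM (median 9.11) in undetected cells, without overlap. Its log2 difference was 3.99 ± 0.36 (SE; edgeR adjusted p = 1.45e-07). Cspg4 stood at 116 CPM ± 21.5 (116 UMIs) against 2.13 ± 4.31 (8 UMIs; SD, n = 7 libraries). Lhfpl3, a precursor marker of the tetraspan family, had 130 UMIs in detected and 2 in undetected cells, and Pcdh15, a protocadherin, 85 and 3, so that no fold is given for either.

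Of 22 OPC genes, 14 passed the filter on low counts, and 12 of these rose with Pdgfra and 1 fell. Genes such as Sox10, Lhfpl3, Pcdh15 and Cspg4 passed it through the detected cells, where they are high. The tally and the fold and p of Sox10 are therefore a description, and no median is given. The chondroitin sulfate proteoglycan genes Bcan (log2 1.90 ± 0.16) and Cspg5 (2.51 ± 0.34), the sulfatase gene Sulf2 (3.79 ± 0.34), C1ql1 (2.53 ± 0.24) and Sox8, a relative of Sox10 (1.01 ± 0.17), were among those that rose. Fam181b fell by 1.00 and Ncan did not pass the test (-0.03 ± 0.15). Outside the list, the lowest p-values among higher genes belonged to Cdo1, which encodes cysteine dioxygenase (358 CPM ± 168 against 20.4 ± 13.5), and to the neuronal calcium sensor gene Ncald (345 ± 114 against 81.6 ± 26.5). Gatm, an enzyme of creatine synthesis, followed at 110 ± 60.8 against 5.79 ± 3.16 CPM, with Ostf1, Nap1l5, Pcsk1n, Gm2a and Arhgap31 higher by 2.73 to 3.95 on the log2 scale. Vxn, at 115 UMIs against 3, was among the genes nearly restricted to detected cells. Cnp, an enzyme of myelin membranes, was the only tested gene of the oligodendrocyte list and rose by 2.08.

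The genes that were lower in Pdgfra-detected cells included those of radial glia and astrocytes. Tnc lay between 104 and 252 CPM in undetected and between 0 and 41.6 CPM in detected cells, a log2 difference of -3.25 ± 0.29 (edgeR adjusted p = 2.55e-11). Tnc passed the filter on low counts through the undetected cells, where it is high, so its fold and p are a description. Other genes of the astrocyte and radial glia lists may have passed in the same way, so their tallies are a description too. Aldoc stood at 233 CPM ± 89.5 in undetected and 68.8 ± 39.8 in detected cells. Of 6 astrocyte genes tested, 5 fell (Aldoc, Sparcl1, Fgfr3, Apoe and Id3). Of 14 radial glia genes, 5 fell (Tnc, Pax6, Slc1a3, Vim and Dbi) and 2 rose, among them the endothelin receptor gene Ednrb (1.61). Fam210b (-2.97 ± 0.24), Actr3b (-2.88 ± 0.30), Tst, Slc9a3r1 and the Wnt antagonist gene Sfrp1 (-1.48 ± 0.20) also fell. The cortical progenitor transcription factors Pax6 (-1.43), Emx2 (-1.34) and Lhx2 (-1.08) were 3 of the 5 dorsal and ventral identity genes tested, and all 3 fell.

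The glial intermediate progenitor genes did not move as a group. Egfr stood at 116 CPM ± 31.6 in undetected and 98.2 ± 51.2 in detected cells, a log2 difference of -0.20 ± 0.21 (edgeR adjusted p = 0.55). Its values overlapped between the sets. Of 12 genes in that list, 3 rose (Dll3 by 1.52, Dll1 by 0.93, and Rgcc) and 3 fell (Cdca7, Gas1 and Dbi). The gliogenic transcription factors divided evenly in this fit, 5 of 11 in each direction, though several of these calls did not hold in the thinned fit given below. Sox6 (1.34 ± 0.21), Sox9 (0.97 ± 0.13), Tcf12, Zeb1 and Sox4 rose, while the nuclear factor I genes Nfib (-0.79 ± 0.11), Nfia (-0.64 ± 0.14) and Nfix (-0.63 ± 0.21) fell with Zbtb20 and Tcf4. Of 10 FGF and EGF pathway genes tested, the feedback inhibitor genes Spry1 (2.01 ± 0.26) and Dusp6 (0.83 ± 0.23) rose and the receptor genes Fgfr3 and Fgfr1 (-1.14 ± 0.24) fell. The other feedback inhibitor genes tested, Spry2 (0.12) and Spred1 (0.25), did not pass the test, nor did Etv1, Etv4 and Etv5, transcription factors downstream of these receptors.

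Several S phase genes were lower in Pdgfra-detected cells. Of 19 S phase genes, 8 fell with Pdgfra and none rose, with a list median of -0.63 against -0.01 over all genes. Of 21 G2 and M phase genes, 2 fell (Nusap1 and Mki67), a share near the 8.93% of all genes that were lower. The estimates of all 21 lay below 0, between -0.18 (Top2a) and -0.69 (Aurkb). The cyclin gene Ccnd2 fell by 1.28. Of 6 CHD family genes tested, Chd7 (0.97) and Chd4 (0.63) rose and the other 4, Chd8 among them, did not pass the test. The count of 706 depended on the processing: DESeq2 called 443 and leaving out the library block 465. Thinning every cell to 1500 UMIs before Pdgfra was called left 72 Pdgfra-detected cells at E17.5 and 3 libraries with at least 10 cells of each state, in which 74 genes were called, 59 of them among the 706. Genes that did not pass the filter on low counts at that depth were not tested. Of the 706, 213 had an estimate of the same sign there. The counts 74 and 706 are therefore not over the same genes. Without the 3 libraries that stood apart 529 were called, 473 of them among the 706. In the thinned fit Nfib, Nfia, Sox9, Zbtb20, Tcf4, Chd7 and Chd4 were no longer called, and Sox4 turned from 0.59 to -0.49.

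**Figure D3:**
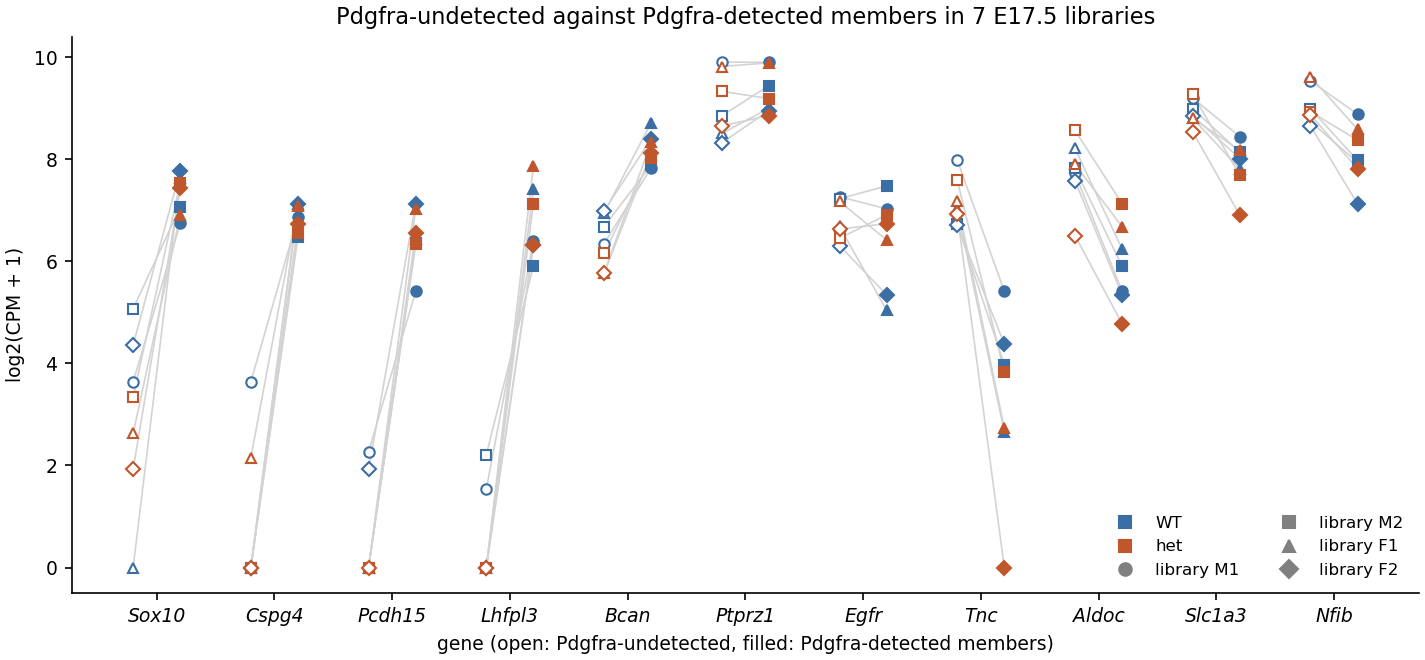
Level of selected genes, as log2(CPM + 1) on the y axis, in Pdgfra-undetected (open) and Pdgfra-detected (filled) Olig1+ progenitors of the 7 E17.5 libraries, with a line joining the 2 values of a library. Sox10 and Cspg4 are higher and Tnc is lower in the detected cells of every library, whereas the values of Egfr overlap.

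Since these precursor genes moved together, the 250 bases before the RefSeq start sites (build GRCm38.p6) were searched for ACAAT, a core of sites bound by Sox proteins, and for CAGCTG, an E-box, on both strands. The table held promoters for 9 of the 12 OPC genes that rose with Pdgfra, 11 promoters in all. ACAAT or its reverse complement ATTGT was in 4 (36.4%) against 27.7% of all 32851 promoters, and CAGCTG, its own reverse complement, was in 3 (27.3%) against 13.0%. Such a match is a description of the letters only. The Lhfpl3 promoter (chr5:22745804-22746053, plus strand) is shown for its pair of E-box matches, the Epn2 promoter (chr11:61579688-61579937, minus strand) for its ATTGT match, and that of Pdgfra (chr5:75152001-75152250, plus strand), the gene that defines the split, has neither. Matches are in capitals.
Lhfpl3: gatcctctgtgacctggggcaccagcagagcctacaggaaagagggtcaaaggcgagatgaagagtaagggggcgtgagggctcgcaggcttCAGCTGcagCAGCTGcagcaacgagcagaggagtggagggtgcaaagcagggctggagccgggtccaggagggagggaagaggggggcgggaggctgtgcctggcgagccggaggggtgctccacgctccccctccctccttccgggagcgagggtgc
Epn2: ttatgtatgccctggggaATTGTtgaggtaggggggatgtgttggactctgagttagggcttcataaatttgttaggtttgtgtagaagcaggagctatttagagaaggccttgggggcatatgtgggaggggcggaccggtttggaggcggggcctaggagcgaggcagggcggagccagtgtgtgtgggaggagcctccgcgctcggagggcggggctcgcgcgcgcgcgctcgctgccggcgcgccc
Pdgfra: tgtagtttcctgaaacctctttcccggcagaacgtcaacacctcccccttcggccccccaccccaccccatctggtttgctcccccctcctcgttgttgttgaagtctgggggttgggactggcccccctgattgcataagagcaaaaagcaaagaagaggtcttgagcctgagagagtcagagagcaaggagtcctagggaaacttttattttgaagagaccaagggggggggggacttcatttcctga

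Between E16.0 and E17.5, over all Olig1+ progenitors of a library, Sox10, Cspg4 and other precursor genes fell, Ptprz1 and Fam181b of the same list rose, and nuclear factor I genes and Egfr rose. The fall of Sox10 and Cspg4 was not seen in Pdgfra-detected cells alone. Over both genotypes, 533 of 3983 genes tested (13.4%) differed with edgeR's quasi-likelihood test: 279 (7%) rose and 254 (6.38%) fell, with a median log2 difference of 0.01 over all genes. Nfix (chr8:84699876-84800344), a transcription factor of the nuclear factor I family that acts late in cortical gliogenesis, lay between 12.6 and 57.1 CPM (median 29.7) in the 8 libraries of E16.0 and between 130 and 267 CPM (median 159) in those of E17.5. The ranges did not overlap, and the log2 difference was 2.64 ± 0.25 (adjusted p = 2.59e-07). Its relatives Nfia (1.46 ± 0.21) and Nfib (1.15 ± 0.15) also rose. Egfr (chr11:16752203-16918158) stood at 17.96, 0, 40.8 and 32.1 CPM in the WT and at 32.6, 15.04, 25.3 and 17.3 CPM in the het libraries of E16.0. At E17.5 it stood at 146, 158, 81.0 and 73.5 CPM (WT) and at 88.1, 94.9, 130 and 99.6 CPM (het), above every library of E16.0, with a log2 difference of 2.46 ± 0.33 (adjusted p = 1.91e-05). Nfix and Egfr may have passed the filter on low counts through E17.5, where they are high, so their folds and p-values are a description. Helt had 1 UMI in all E16.0 libraries together and 256 at E17.5. The summed cells of a library held fewer UMIs at E16.0 (62318 to 132998) than at E17.5 (261001 to 756841).

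Sox10 moved in the opposite direction. It stood at 135, 163, 109 and 96.3 CPM in the WT and at 163, 150, 126 and 198 CPM in the het libraries of E16.0. At E17.5 it stood at 39.2, 65.7, 58.8 and 44.1 CPM (WT) and at 30.7, 54.2, 31.7 and 32.4 CPM (het). No E17.5 library reached the lowest of E16.0, and the log2 difference was -1.61 ± 0.20 (edgeR adjusted p = 5.67e-06). Sox10 may have passed the filter on low counts through E16.0, where it is high, so its fold and p are a description. Among the 24 genes with the lowest p in either direction, Mfge8, Meis2, Cdk6, Kcnc1, Mt2, Pantr1 and Tmsb4x rose with these. Those that fell were led by Gap43, a growth cone gene (356 CPM ± 104.6 to 103 ± 16.8), the tropomyosin gene Tpm1 (574 ± 173 to 162 ± 44.8) and Lmo4 (461 ± 109 to 161 ± 30.6). The actin-binding gene Tagln2, S100a10, Gatm, Pou3f1, Phlda1, Mmp15, Cntn1 and Spry1 fell by 1.92 to 2.72 on the log2 scale. The rule genes, given without a test, stood at 1532 CPM ± 338 and 1291 ± 320 (Olig1), 690 ± 137 and 697 ± 137 (Olig2) and 228 ± 54.6 and 116 ± 52.8 (Pdgfra) at E16.0 and E17.5.

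**Figure D4:**
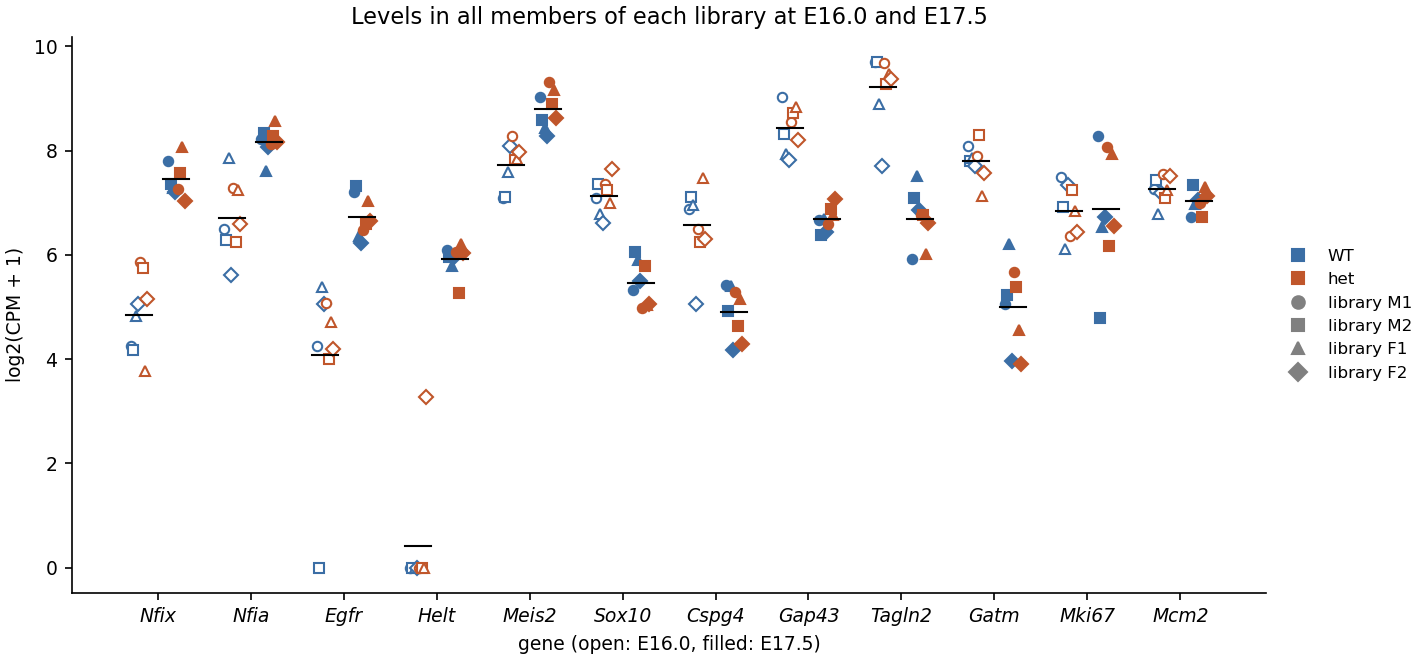
Levels in Olig1+ progenitors, as log2(CPM + 1) on the y axis, for 12 genes at E16.0 (open) and E17.5 (filled), 1 point per library and a bar at the mean. Nfix, Egfr and Helt are higher and Sox10, Gap43 and Gatm lower in every E17.5 library than in any of E16.0, and the proliferation genes Mki67 and Mcm2 overlap.

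By list, 7 of 17 OPC genes tested fell (Sox10, Cspg4, Cspg5, Lhfpl3, Pcdh15, Lims2 and Gpr17) and 2 rose (Ptprz1 by 0.85 and Fam181b by 0.96). Genes such as Lims2 and Gpr17, at most 24.3 and 30.2 CPM in any E17.5 library, were higher on average at E16.0 and may have passed the filter on low counts through it, so the tally is a description. Gpr17 lies inside Lims2 on the other strand, and their reads cannot be told apart without strand. Both oligodendrocyte genes tested fell, Bcas1 by 1.44 and Cnp by 0.93. Of 12 glial intermediate progenitor genes, 5 rose (Egfr, the Notch modulator Mfng by 2.00, the Notch ligand Dll1 by 1.94, Cdca7 and Dbi) and Rgcc fell. Egfr, low in every E16.0 library, may have passed the filter on low counts through E17.5, so this tally too is a description. Of 8 Notch pathway genes, 4 rose, among them the Notch effector gene Hes5 (1.08) and Lfng (2.13). Astrocyte genes rose in 5 of 7 cases, with Id3 at 2.66 and Apoe at 2.16, and S100b fell by 2.79. Radial glia genes rose in 6 of 14 cases, with Tnc at 2.34 and Pax6 at 1.46, and Vim fell. Over all genes tested, 7% rose and 6.38% fell. Genes of the Notch, astrocyte and radial glia lists that were low at E16.0 may have passed the filter on low counts through E17.5. These 3 tallies are therefore a description as well. Of the 19 S phase and 21 G2 and M phase genes none passed the test in either direction, with list medians of 0.01 and 0.06.

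Of 12 dorsal and ventral identity genes, 6 were tested between the stages. The cortical genes Emx2 and Pax6 rose by 1.86 and 1.46, the ventral progenitor gene Gsx1 fell by 2.19, and the other 3, among them Lhx2 (1.01) and the ventral gene Gsx2 (0.02, edgeR adjusted p = 0.985), did not pass the test. Some of these genes may have passed the filter on low counts through the stage where they are high, so these values are a description. Nkx2-1, a transcription factor of the most ventral telencephalon, lay between 13.6 and 103 CPM at E16.0 (42 UMIs in 80 cells) and between 0 and 14.3 CPM at E17.5 (23 UMIs in 436 cells). These ranges overlapped, and it did not pass the filter on low counts and was not tested. At E17.5 it was found after thinning in 8.76% of Pdgfra-detected and 0% of undetected cells. Emx1, a cortical gene that was not tested either, lay between 0 and 27.2 CPM at E16.0 and between 19.5 and 38.98 CPM at E17.5, which overlapped. Of 7 CHD family genes tested, Chd7 (0.91) and Chd3 (1.40) rose. Hbb-bs, a globin gene with near-identical copies, rose by 2.90, alongside the red blood cell sums given above.

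By raw counts the Pdgfra-detected share was lower at E17.5 than at E16.0, although the ranges overlapped after thinning. The comparison was therefore repeated in Pdgfra-detected cells alone, a choice made after the data were seen. This fit set no minimum of cells: a library held 3 to 9 Pdgfra-detected cells at E16.0 and 8 to 26 at E17.5. There, 229 of 1982 genes differed, 155 higher and 74 lower, and 142 of them were among the 533. Nfix (2.23), Nfia (1.16), Mfge8 (1.75), Meis2 (1.38) and Ptprz1 (0.95) were again higher at E17.5, and Gap43 (-1.13), Tagln2 (-1.75), Gatm (-1.20), Tpm1, Lmo4, S100a10 and Spry1 lower. Fam181b (1.11) was higher too. Other precursor genes did not pass: Sox10 differed by -0.13 (edgeR adjusted p = 0.712) and Cspg4 by -0.09 (0.860), and the estimates for Lhfpl3 (0.19), Pcdh15 (0.12), Cspg5 (0.42) and Cnp (0.01) had the opposite sign to the one in all cells and did not pass the test. Nfib (0.62, adjusted p = 0.0579), Hes5, Ccnd2 and Hbb-bs also no longer passed. Egfr, Helt and Kcnc1 did not pass the filter on low counts in this fit and were not tested. By raw UMIs, Egfr was found in 4 of 53 Pdgfra-detected cells at E16.0 (7.55%) and in 42 of 137 at E17.5 (30.7%). Without the 3 E17.5 libraries that stood apart, 424 genes were called in all cells, 331 of them shared with the 533; Ptprz1, Fam181b, Cspg5, Cnp, Hes5, Chd7 and Chd3 were among those no longer called.

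Proliferation markers were frequent at both stages. After thinning to 1500 UMIs, a UMI of Mki67 or Top2a was found in 27 of 80 cells at E16.0 and 158 of 436 at E17.5. The WT libraries stood at 66.7%, 50%, 22.2% and 20% at E16.0 and at 49.3%, 17.4%, 23.3% and 29.5% at E17.5. The het libraries stood at 18.8%, 16.7%, 44.4% and 40% and then at 57.7%, 34.9%, 42.9% and 36.5%. The stages overlapped widely within both genotypes. The 3 highest shares at E17.5 belonged to the 3 libraries that stood apart.

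Loss of 1 copy of Chd8 was compared next, since the design sets het against WT embryos at each stage. The share of Olig1+ progenitors did not separate the genotypes. At E17.5 the 4 WT libraries averaged 1.48% ± 0.217 (SD) and the 4 het libraries 1.53% ± 0.333, a difference of 0.0483 percentage points (two-sided exact permutation p = 0.857), and het was higher in 3 of 4 same-named comparisons. At E16.0 the means were 0.173% ± 0.0236 and 0.210% ± 0.0812, a difference of 0.0371 points (exact permutation p = 0.514). Averaged over both stages the difference was 0.0427 points (exact permutation p = 0.687), and it was 0.00902 points at E14.5 (exact permutation p = 1). The adjusted p was 1 in each case. Thinned to 1500 UMIs per cell, the E17.5 difference was -0.0960 points (p = 0.543 in the same exact test), so its direction was not stable. The average turned too, to -0.0344 points when thinned and -0.00912 without het M2 of E17.5, and the E16.0 difference was -0.00199 without het M1. Without the 3 libraries that stood apart the E17.5 difference was 0.307 points (exact permutation p = 0.300) and the average 0.172 (exact permutation p = 0.113). With likely doublets left out, 17 in WT and 3 in het libraries at E17.5, that difference was 0.133 points (exact permutation p = 0.600) and the average 0.0933 (exact permutation p = 0.399).

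The composition of the set overlapped between the genotypes. At E17.5 the share with Pdgfra averaged 33.3% ± 7.28 (SD) over the 4 WT libraries and 29.1% ± 2.47 over the 4 het libraries, and averaged over both stages het minus WT was -4.42 percentage points. Pdgfra is part of the rule, so these values are a description, and the p of the permutation run on them, 1 of the 7 comparisons of shares, is not read. Without the 3 libraries that stood apart it was -4.10 points. Without the E16.0 library WT M1, in which all 9 cells were Pdgfra-detected, it was 0.765 points. The thinned share with Mki67 or Top2a was 29.9% ± 13.9 in WT and 43.0% ± 10.4 in het libraries at E17.5, but 39.7% ± 22.6 and 29.97% ± 14.3 at E16.0. The average difference was 1.67 points (exact permutation p = 0.841; het higher in 6 of 8 same-named comparisons). It changed sign with any of 6 libraries left out, it was 1.27 points without the 3 libraries that stood apart, and without thinning it was 10.1 points (exact permutation p = 0.301).

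No gene passed the test between genotypes when low counts were filtered and libraries were not paired. At E17.5, 0 of 6199 genes (0%) were called with edgeR's quasi-likelihood test, 142 had an unadjusted p under 0.05 and the lowest adjusted p was 0.853. At E16.0, 0 of 3983 (0%) were called with 152 at an unadjusted p under 0.05. The average over both stages gave 0 with 167, and the interaction of genotype and stage gave 0 with 84. DESeq2 called none in any of the 4, and edgeR none without the 3 libraries that stood apart. The summed counts of a library held between 62318 and 132998 UMIs at E16.0 and between 261001 and 756841 at E17.5.

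The gene with the lowest p at E17.5 was Lgals1 (chr15:78926725-78930465), which encodes the sugar-binding protein galectin-1. It stood at 358, 448, 303 and 346 CPM in WT and at 238, 220, 193 and 183 CPM in het libraries, without overlap, for a log2 difference of -0.80 ± 0.16 that did not pass adjustment over all genes (edgeR adjusted p = 0.853). At E16.0 it stood at 117, 137, 95.3 and 417 CPM in WT and at 48.9, 30.1, 75.8 and 138 CPM in het libraries, which overlapped. Without the filter on low counts Lgals1 was the only gene called at E17.5 (-0.85, adjusted p = 0.0376) and in the average (-1.05, adjusted p = 0.000103). It was lower in het in 8 of 8 comparisons of same-named libraries over both stages. The embryos were taken as litter-matched and sex-matched pairs, although the labels do not say that a shared name marks a pair. Sample codes begin alike within same-named libraries at E16.0 and for M2 and F2 at E17.5, but at E16.0 the code also begins alike in the other libraries of that sex, and its meaning is not given. With the replicate name as a block, Lgals1 was called in the average (-1.13, edgeR adjusted p = 0.000809), as was the immediate early gene Egr1 (-1.19, also lower in 8 of 8), and no gene was called at either stage alone. The next lowest p-values at E17.5 were those of Ccdc167 (38.0 CPM ± 8.28 in WT, 73.4 ± 8.03 in het), the neural stem cell nuclear receptor gene Nr2e1 (34.6 ± 3.75 and 67.4 ± 17.8) and the phosphatase gene Dusp1 (73.9 ± 22.0 and 37.5 ± 10.2). At E16.0 they were those of Cdca7 (log2 1.21 ± 0.29), the ubiquitin gene Ubb (-0.78 ± 0.19), Abracl (0.79 ± 0.21) and Mrpl9 (-1.13 ± 0.30). None of these passed adjustment with the filter on low counts, and without it Ubb was called at E16.0 (-0.72, edgeR adjusted p = 0.00263).

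Chd8 itself (chr14:52198151-52257780) had 12 to 49 UMIs in the Olig1+ progenitors of an E17.5 library. It stood at 66.3, 51.1, 36.5 and 31.9 CPM in WT and at 46.0, 30.5, 52.9 and 32.4 CPM in het libraries. The log2 difference of -0.22 ± 0.29 turned to 0.0136 without WT M1 and was -0.42 without het F1. It was -0.32 without the 3 libraries that stood apart and -0.14 with a replicate block. Over all cells, those 3 had the highest Chd8 of E17.5, at 83.8, 71.0 and 71.0 CPM against 40.7 to 61.9 CPM. Between genotypes at E17.5, the list medians were -0.21 for 15 OPC genes, 0.08 for 12 glial intermediate progenitor genes, 0.13 for 12 gliogenic transcription factors and 0.25 for 8 CHD genes, against 0.01 over all genes, with no gene of these lists called. The 4 red blood cell genes had a median of 1.66, with Hbb-bs at 119, 263, 176 and 326 CPM in WT and at 2939, 1025, 196 and 354 CPM in het libraries. Of the 4 genes that an earlier analysis of these data found changed in het over all cells, only Crlf2 was tested here. It stood at 10.8, 17.03, 25.4 and 12.3 CPM in WT and at 30.7, 15.3, 22.5 and 41.7 CPM in het libraries and did not pass the test (0.66 ± 0.39).

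**Figure D5:**
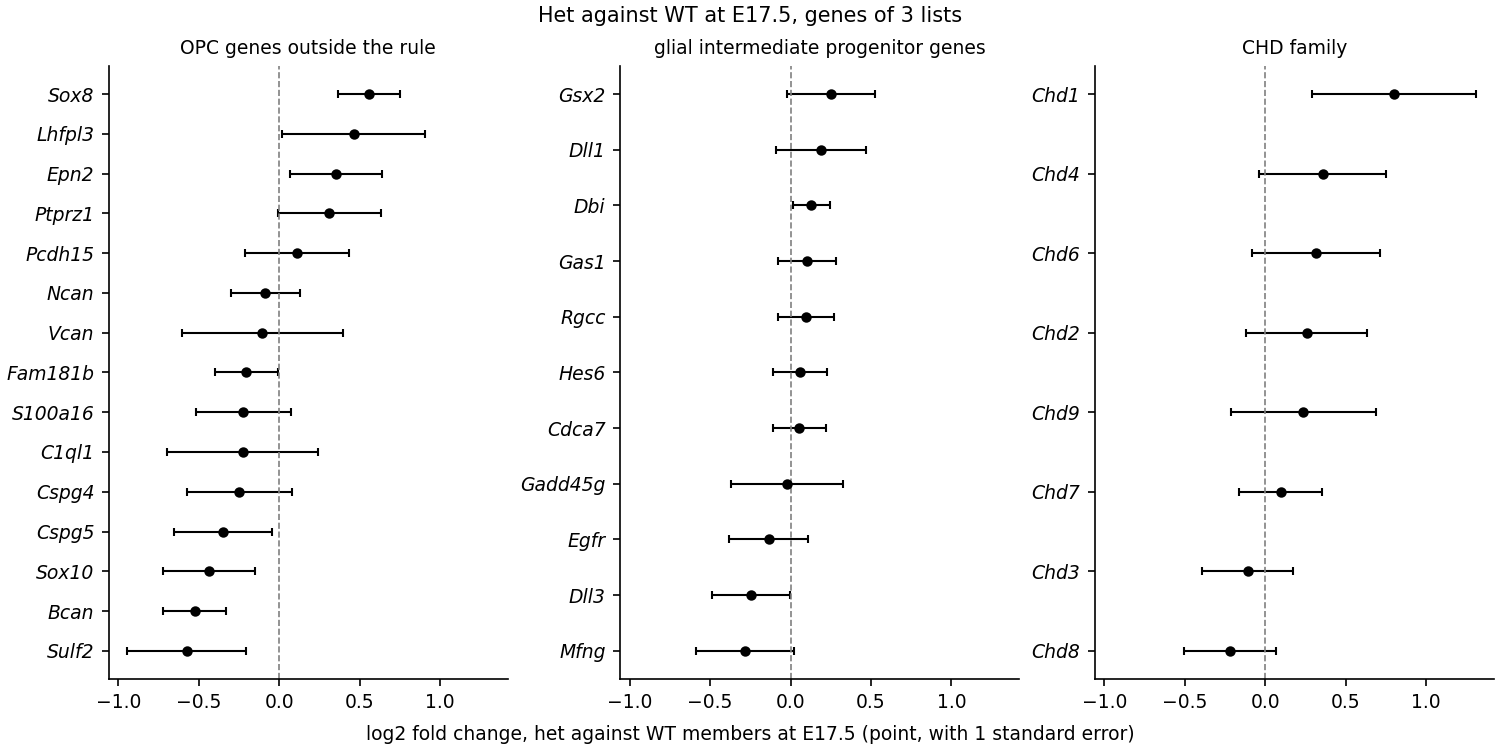
Log2 fold change of het against WT in the Olig1+ progenitors of E17.5 (x axis, points with 1 standard error) for the tested genes of 3 lists: 15 OPC genes, 12 glial intermediate progenitor genes, of which 11 are drawn, and 8 CHD family genes. Values scatter on both sides of 0, with list medians of -0.21, 0.08 and 0.25, and no gene passed adjustment.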

How the data were processed

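Single cells of WT and Chd8 het dorsal telencephalon were measured in 32 libraries. The authors deposited raw UMI counts per gene and barcode for each library, with the lists of 32285 genes and of barcodes. Per the submitters' processing notes, the build was mm10 and Cell Ranger, STAR 2.7.9a and STARsolo were used. The sources used here do not give the filters on cells or whether counting used strand. Positions come from GENCODE M21 (GRCm38) and promoters from RefSeq (GRCm38.p6).

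Barcodes with at least 1000 UMIs and 500 genes were kept. Doublets were scored but kept: each cell's share of simulated doublets among its 30 nearest neighbours was ranked, at an assumed 0.8% per 1000 cells. Free RNA was not modelled. Raw UMIs of the cells were summed per library and tested with edgeR 4.0.16 (TMM, filterByExpr, glmQLFit with robust estimation, glmQLFTest, Benjamini-Hochberg over all genes in the fit, threshold 0.05). Those of the 5 rule genes that passed the filter stayed in the fit and the adjustment. They were left out of the counts of genes tested and called. CPM divides a sum by all UMIs of the summed cells. The planned minimum of 20 cells per library kept no library of E16.0 (5 to 16 cells), so fits with E16.0 use a minimum of 5 and all 16 libraries of both stages, a choice made after cells were counted. The E17.5 fit used its 8 libraries, and the Pdgfra fit 7. Shares were compared by exact permutation over libraries. Limits for a count of 0 use 3 counts and cover counting error only.

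Alternatives were DESeq2 1.42.0, no filter on low counts, thinning to 1500 UMIs, a sum of at least 4, doublets left out, a replicate block, no library block, and each library left out. Named genes were those of the gene lists and, per comparison, up to 12 called genes in each direction with the lowest p, or the 4 with the lowest p where fewer than 4 were called. For the description beside radial glia-like cells they were the genes with the largest folds at 50 CPM or more. The cells and lists were chosen with earlier results of these data known. 2 genes of the lists are counted but not reported here. Scripts were tested on simulated data.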

Additional observations from a re-analysis of the deposited data

Results flagged for a closer look

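Of 67 groups of libraries checked for a value far from the rest, 8 had one, where chance gives about 1 in 20 for normally distributed values. The share of Olig1+ progenitors was 0.0404% in WT F1 at E12.5 and 0.0582% in WT F2 at E14.5, and 0 in the other 3 libraries of each group. In such a group any single share above 0 is flagged, so that rate does not hold there. The Pdgfra-detected share was 100% in WT M1 at E16.0, with 60% the next highest. Sox10 was 54.2 CPM in het M2 at E17.5 (next 32.4), Cspg4 177 CPM in het F1 at E16.0 (next 89.7), Zcwpw1 17.6 CPM in WT M1 at E17.5 (next 4.90) and Lgals1 417 CPM in WT F2 at E16.0 (next 137). Among Pdgfra-undetected cells of 7 libraries at E17.5, Cspg4 was 11.5 CPM in WT M1 (next 3.45).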

How the results depend on the processing

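An E16.0 library held 5 to 16 Olig1+ progenitors. The rise of the WT share from E16.0 to E17.5 kept its direction and its smallest possible p under each alternative run (1.22 to 1.38 points with 1 library left out). When cells were thinned, the genotype difference in share changed sign, to -0.0960 points at E17.5 and -0.0344 in the average. With a sum of at least 4 it was 0.0102 points at E17.5 and 0.0186 in the average, and at E14.5 it ran from 0.00434 (a sum of at least 4) to 0.0232 points (a sum of at least 2). With 1 library left out it ran from -0.00185 to 0.0236 points at E14.5, from -0.00199 to 0.0574 at E16.0, from -0.0554 to 0.204 at E17.5 and from -0.00912 to 0.121 in the average. The Pdgfra-detected share ran from -6.64 to 0.765 points and the cycling share from -1.61 to 6.16 points. No p for the shares tested between genotypes fell under 0.05.

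Between genotypes 0 genes were called with any library left out, with DESeq2, without doublets, or, at E17.5, in Pdgfra-detected or undetected cells alone. Without the filter on low counts 1 gene was called at E17.5 (Lgals1), 1 at E16.0 (Ubb, -0.72, adjusted p = 0.00263) and 1 in the average (Lgals1). For the stages, 969 genes were called without the filter and 229 in Pdgfra-detected cells alone, where Lhfpl3 (0.19), Cspg5 (0.42), Pcdh15 (0.12) and Cnp (0.0139) changed sign. With 1 library left out 401 to 648 were called. For the Pdgfra split 443 were called with DESeq2, 1343 without the filter, 465 without the library block, 74 with thinning in the 3 libraries that kept 10 cells of each state, where Sox4 changed sign (-0.49), and 501 to 662 with 1 library left out. Genes that did not pass the filter after thinning were not tested in that fit. The Chd8 difference at E17.5 ran from -0.416 to 0.0136 with 1 library left out, the latter without WT M1. The causes were not tested.

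The labels speak of litter- and sex-matched pairs but do not say that a replicate number marks one. Same-named WT and het libraries deviated together in 7 of 8 comparisons, but with correlations of only 0.0766 for F1 at E16.0 and -0.0753 for F1 at E17.5. At E16.0, libraries of the same sex with different names correlated by 0.131 to 0.232, as same-named ones did (0.0766 to 0.262). At E17.5 the same-named M1, M2 and F2 correlated by 0.617, 0.510 and 0.606. Libraries of the same sex with different names lay there between -0.450 and 0.148. WT M1 and het F1, which differ in name and sex, correlated by 0.504 at E17.5. With a replicate block, 2 genes were called between genotypes in the average (Lgals1 at -1.13 and Egr1 at -1.19, each with edgeR adjusted p = 0.000809) and the block changed no other call.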
